A study of Homo sapiens with 9 samples.

Results

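Sense-intronic RNA genes are annotated transcripts that lie inside another gene, on the same strand, within its introns. Of the 894 genes that the deposited table gives the biotype sense_intronic, 107 were selected on their level, by a mean of at least 10 reads over all 9 samples, and 269 were listed at 0 in every sample. The whole table holds 58735 genes. The mean over all samples chose the members, so their level is a description. The threshold compared no groups, but a member near it could pass through the groups in which it was high. The members as a class were also chosen with earlier results of these data known. Just inside the threshold were AC022613.3, AL109614.1 and AC016586.1, with mean counts of 10.6, 10.2 and 10, and just outside were AL158166.1, ZBTB40-IT1 and AC084824.3, with 9.89, 9.78 and 9.78.

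RNA-seq was performed in KHM-5M, a single human thyroid cancer cell line, with 3 samples in each of 3 groups. The cells received DMSO, the vehicle, or YK-4-279, a small-molecule inhibitor of ETS transcription factors, at 0.3 or 1 μM, and all were harvested after 24 h. No group carried a further gene edit or treatment in the labels. PAX8, a thyroid lineage transcription factor, had 2742 to 3660 reads and the epithelial keratins KRT8 and KRT18 at least 22002 and 7028, while TG and TSHR reached no more than 4 and 2 reads, and NKX2-1 and FOXE1 reached 10 and 34. PTPRC and CD3E of leukocytes had at most 1 read and the hepatocyte gene ALB at most 3, while PECAM1 and VWF of endothelium reached 6 and 77 and CALCA of thyroid C cells 8. Each library held 16903251 to 18238884 counts, so a count of 0 allows up to 3 reads, or 0.164 to 0.177 CPM (the count scaled to the library total), which covers counting error alone. The labels do not say whether samples of a group were separate cultures, and the methods name fewer biological replicates per condition than the 3 samples labelled and used here, so SDs and p-values measure the spread between these samples, which may be technical.

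Introns are transcribed with their host and are normally spliced out and degraded in the nucleus. Stable RNA can still arise within an intron, from a promoter of its own or from cleavage and polyadenylation at a site inside the intron, and the nuclear exosome with its adaptor complexes degrades many such RNAs. The U1 snRNP, which recognises 5′ splice sites, is also known to hold back premature cleavage and polyadenylation in introns. The labels describe selection of RNA on poly-T beads, which favours polyadenylated RNA. Whether strand was used in counting is not given in the sources used here, and reads of an independent intronic RNA, of a retained intron and of unspliced host RNA cannot be told apart from counts per gene.

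Of the 107 members, 104 lay wholly within a gene of another biotype on the same strand, called the host here, and these had 94 different hosts. For 98 members the host was protein-coding. The 3 members with no enclosing gene were AC010186.3, MIR600HG, which overlaps part of STRBP, and AL365273.1, which overlaps part of ENTPD1. In 9 cases a host held more than 1 member, so that 19 members shared their host with another and are not independent of it, and 10 members had more than 1 enclosing gene. The members began 53.9% of the way along the host at the median (range 0.684 to 95.2%), and hosts spanned 57.4 kb at the median. In the GENCODE v44 annotation of the same build (GRCh38), 92 of the 104 hosted members touched no exon of the host, 7 touched one in part and 5 lay inside host exons throughout. The canonical transcript of the host had 84 members within 1 of its introns, 18 of them in the first intron and 15 in the last. An expressed gene on the opposite strand (mean count 10 or more) overlapped 11 members.

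A polyadenylation signal was looked for at the annotated 3′ ends, since the libraries were made from poly-T-selected RNA. The letters AATAAA or ATTAAA stood in the last 40 bases, on the gene's own strand, in 63 of 107 members (58.9%). The share was 73.4% for protein-coding genes with a mean of 10 reads or more, 56.8% for lincRNA genes, 49.1% for antisense genes and 36.2% for TEC genes (loci that the annotation holds back for experimental follow-up), all at that level or above, and 37.7% over all genes in the table. A run of 8 A in the 50 genomic bases after the end, where oligo-dT can also anneal, followed 9 members (8.41%), against 9.45% of the TEC genes, 2.49% of the lincRNA genes, 2.43% of the antisense genes, 1.62% of the protein-coding genes and 3.94% of all genes. Runs of A inside the annotated gene, such as those that end NPTN-IT1 and AC022613.3, were not counted. Matches of letters at an annotated end do not show that the end is used. The last 60 bases of 8 members that the results below turn on are given from hg38 (GRCh38), 5′ to 3′ on the gene's strand, with the last matching signal in capitals. The first trio shares the host KLC1, the next 3 fell at 1 μM and hold a signal, and the final pair fell without one.
AL049840.3, chr14:103695111-103695170 (+): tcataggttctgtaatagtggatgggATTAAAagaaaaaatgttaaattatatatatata
AL049840.4, chr14:103697104-103697163 (+): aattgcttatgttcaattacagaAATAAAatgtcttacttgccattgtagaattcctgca
AL049840.5, chr14:103688068-103688127 (+): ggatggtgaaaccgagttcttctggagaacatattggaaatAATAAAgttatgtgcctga
AL442125.1, chr13:113530562-113530621 (+): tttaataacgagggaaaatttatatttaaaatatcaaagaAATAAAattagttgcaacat
AC011462.4, chr19:41374360-41374419 (+): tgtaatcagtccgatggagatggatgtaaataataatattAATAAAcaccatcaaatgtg
AP005136.2, chr18:2561172-2561231 (-): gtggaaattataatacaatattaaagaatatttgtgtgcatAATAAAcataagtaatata
ANKRD10-IT1, chr13:110894639-110894698 (-): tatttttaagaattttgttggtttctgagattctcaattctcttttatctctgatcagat
ACAP2-IT1, chr3:195280723-195280782 (-): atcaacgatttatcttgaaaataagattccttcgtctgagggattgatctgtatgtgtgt

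Per gene length, members were expressed below most of their hosts. The FPKM of a member (its count scaled by gene length and library size by the authors) was 1.72 at the median in DMSO, with a range of 0.207 to 26.0. This was 22.7% of the FPKM of the host at the median of the 102 pairs with a value, with 18 members under 10% of the host and 20 at or above it. ANKRD10-IT1 was the most abundant, with an FPKM of 26.0 in DMSO and 102% of that of ANKRD10, an ankyrin repeat gene. AL049840.4 reached 315% of the FPKM of KLC1, a kinesin light chain, and NPTN-IT1 16.8% of that of NPTN, the cell adhesion molecule neuroplastin. The 5 most abundant members held 26.4% of all member reads, and 41 members had a mean count under 20.

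The share of each library that came from the 107 members was lower at 1 μM. It was 0.0276, 0.0268 and 0.0261% in DMSO replicates 1 to 3, 0.0247, 0.0263 and 0.0253% at 0.3 μM, and 0.0212, 0.0172 and 0.0203% at 1 μM. The 3 values at 1 μM all lay below those of the other 6 samples, and replicate 2 at 1 μM was the lowest. The mean share at 1 μM (0.0196% ± 0.00208, SD, n = 3) was 0.729 times that in DMSO (0.0268% ± 0.000792, SD, n = 3), and 0.699 times without the 5 most abundant members. Over the same samples the summed hosts kept their share (1.01 times), as did protein-coding genes (1.00 times). The share of other non-coding classes was lower along with the members, at 0.792 times for antisense genes, 0.836 times for lincRNA and 0.719 times for TEC genes, and their part in the members' values was not tested. In bulk RNA, fewer cells with a transcript and less of it per cell cannot be told apart.

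**Figure D1:**
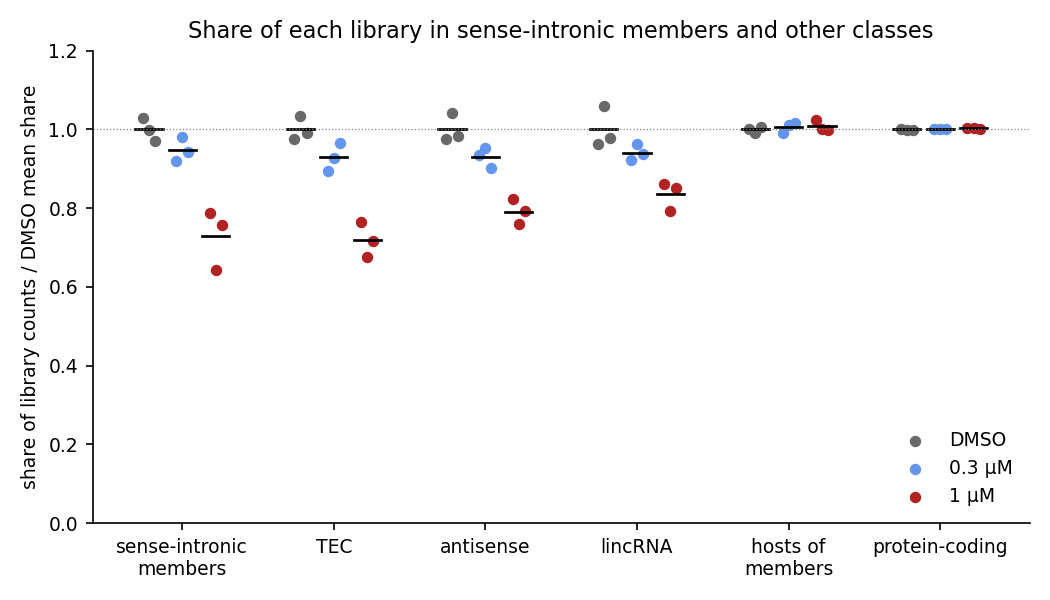
Share of library counts relative to the DMSO mean (vertical axis, linear) for the members, all genes of 4 other classes and the hosts; points are samples and bars group means. At 1 μM the members stand at 0.729 of DMSO and the hosts at 1.01.

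At 1 μM, 20 of the 104 members tested fell and none rose. Across all 15617 genes tested by edgeR's quasi-likelihood test, 9.95% were called lower and 7.67% higher (Benjamini-Hochberg adjusted p under 0.05), so that the share of members lower (19.2%) was above the background and the count higher (0) below it. Other non-coding classes were near the members: 18.7% of 123 TEC genes were lower and 0 higher (median −0.56), and 16.5% of 703 antisense genes were lower and 0.284% higher (median −0.32), beside 10.7% of 550 lincRNA genes lower. Differences between these classes were not tested. The count of members called was 11 of 107 by DESeq2, also all lower. DESeq2 covered more genes, and 1145 of 32131 were lower and 1159 higher, so its count cannot be set against the 9.95%. At an unadjusted p under 0.05, 38 members passed in edgeR, and the number over all genes was not counted. The median log2 fold change of the members was −0.54, beside −0.01 over all genes, and 90 of 104 were below 0. In members with a mean of 10 to 20 reads the median was −0.71, beside −0.48 at 20 to 50 and −0.50 at 50 or more. The CPM at 1 μM lay below all DMSO samples for 43 members and above them for none, against 19.1% of all genes lower and 16.7% higher. With 3 samples a group, a two-sided exact permutation test of a single gene cannot give a p under 0.1. The 20 that fell had log2 fold changes of −2.18 to −0.58 (median −1.16), and all but 1 changed by at least 1.5-fold.

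Single libraries moved this count. It was 11 of 106 members tested without DMSO replicate 1 (1313 of all 16013 genes lower) and 18 of 104 without DMSO replicate 2 (1572 of 15988). Without DMSO replicate 3 it was 9 of 105 (1028 of 16006). Leaving out replicate 1 at 1 μM gave 17 of 106 (1111 of 16087), replicate 2 gave 7 of 105 (1004 of 16118) and replicate 3 gave 12 of 106 (1055 of 16103). All members called were lower. Without replicate 2 at 1 μM the members' share was near that of all genes, and in the other fits it was above. All 20 kept a negative change in each of the 6 fits that left out a library, and 6 were called in every one of them: ANKRD10-IT1, AL442125.1, AC087481.3, AC127502.2, AC011462.4 and ACAP2-IT1. By DESeq2, 11 of the 20 were called, 7 were not, and 2 (AP005136.2 and AC022613.3) received no adjusted p. Per sample, the median member stood at log2 −0.34, −0.57 and −0.42 relative to the DMSO mean in replicates 1 to 3 at 1 μM, and between −0.14 and 0.05 in the other 6 samples.

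**Figure D2:**
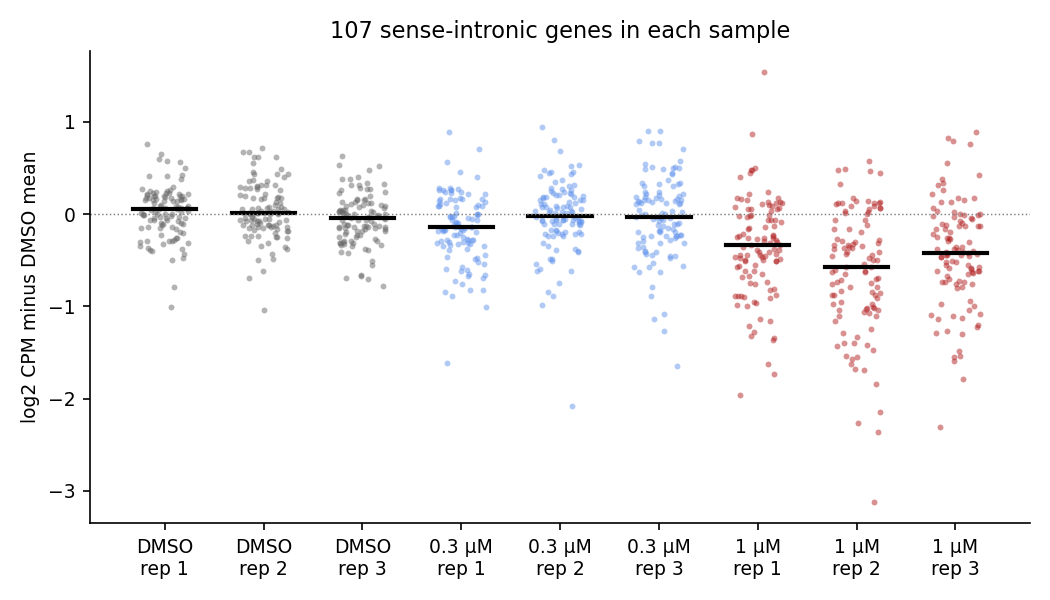
Log2 CPM of each of the 107 members minus its DMSO mean (vertical axis) in the 9 samples (horizontal axis), with the median of each sample as a bar; points are members. The medians at 1 μM are −0.34, −0.57 and −0.42.

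Among the 10 most abundant members, 4 fell at 1 μM. ANKRD10-IT1 had 358, 340 and 392 reads in DMSO, 324, 380 and 308 at 0.3 μM, and 314, 197 and 231 at 1 μM. Every sample at 1 μM was below the DMSO samples, with replicate 1 nearest to them, and its count was within the range of those at 0.3 μM. Its log2 fold change was −0.58 (SE 0.13, adjusted p = 0.00801), and its host ANKRD10 fell too, with a log2 fold change of −0.44 (adjusted p = 0.000448). AL442125.1, in the gene TMCO3, had 252, 195 and 222 reads in DMSO, 181, 233 and 257 at 0.3 μM, and 167, 118 and 149 at 1 μM. The groups at 1 μM and in DMSO did not overlap, and the change was −0.65 (SE 0.15, adjusted p = 0.00758), while TMCO3 stood at 0.01 (adjusted p = 0.96).

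AC087481.3 lies in FAN1, which encodes a DNA repair nuclease, and within its exons in GENCODE v44, so that its reads and those of FAN1 transcripts cannot be fully told apart. It had 204, 197 and 180 reads in DMSO, 191, 194 and 164 at 0.3 μM, and 151, 92 and 134 at 1 μM, with no overlap between DMSO and 1 μM. The changes were −0.65 (SE 0.16, adjusted p = 0.0108) for the member and −0.42 (adjusted p = 0.00478) for FAN1. AC135050.6, in the histone acetyltransferase gene KAT8, had 109, 120 and 110 reads in DMSO, 124, 123 and 92 at 0.3 μM, and 95, 61 and 70 at 1 μM. It fell by 0.61 on the log2 scale (SE 0.17, adjusted p = 0.0241) and was called in 3 of the 6 fits that left out a library. The second member in KAT8, AC135050.5, had a change of −0.96 that did not pass the test (adjusted p = 0.0926), and KAT8 itself stood at −0.18 (adjusted p = 0.17).

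The other 6 of the most abundant members did not pass the test at 1 μM. GABPB1-IT1 lies in the first intron of GABPB1, the partner subunit of the ETS factor GABPA. It had 168, 182 and 156 reads in DMSO, 205, 161 and 140 at 0.3 μM, and 173, 158 and 194 at 1 μM. The groups overlapped, with a log2 fold change of 0.04 (SE 0.13, adjusted p = 0.88) for the member and −0.08 (adjusted p = 0.677) for GABPB1. AL049840.4 stood at 0.03 (adjusted p = 0.903), MIR600HG, which carries the name of the microRNA host gene of miR-600, at −0.10 (adjusted p = 0.664), and AC015871.3 in ST20 at −0.18 (adjusted p = 0.522). AC022150.4 in the zinc finger gene ZNF83 stood at −0.25 (adjusted p = 0.369), whereas ZNF83 fell by 0.53 (adjusted p = 0.00133). AC092718.4, inside exons of the centromere gene CENPN in GENCODE v44, stood at −0.39 (adjusted p = 0.105).

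KLC1 held 3 members that differed in their values. AL049840.5 had 39, 38 and 56 reads in DMSO, 31, 38 and 48 at 0.3 μM, and 33, 17 and 16 at 1 μM. Its change was −1.04 (SE 0.32, adjusted p = 0.0355), it was called in 3 of 6 fits without a library, and it missed the threshold in DESeq2 (adjusted p = 0.0643). AL049840.3, which an opposite-strand gene overlaps, had 15, 26 and 22 reads in DMSO and 29, 16 and 38 at 1 μM, a change of 0.38 that did not pass (SE 0.36, adjusted p = 0.507). AL049840.4 lay in the same intron of the canonical transcript as AL049840.3, and had 236, 209 and 242 reads in DMSO, 271, 269 and 231 at 0.3 μM, and 249, 208 and 254 at 1 μM. KLC1 stood at −0.18 (adjusted p = 0.0679), and differences among its members were not tested. In TMCO3 and ZNF83, which also hold a second member each, AL442125.2 and AC022150.2 stood at −0.56 and −0.45 (adjusted p = 0.201 and 0.407). The other shared hosts held members with changes of one sign, except XKR6, whose AF131215.5 and AF131215.6 stood at −0.12 and 0.06, both far from the threshold (adjusted p = 0.783 and 0.945).

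**Figure D3:**
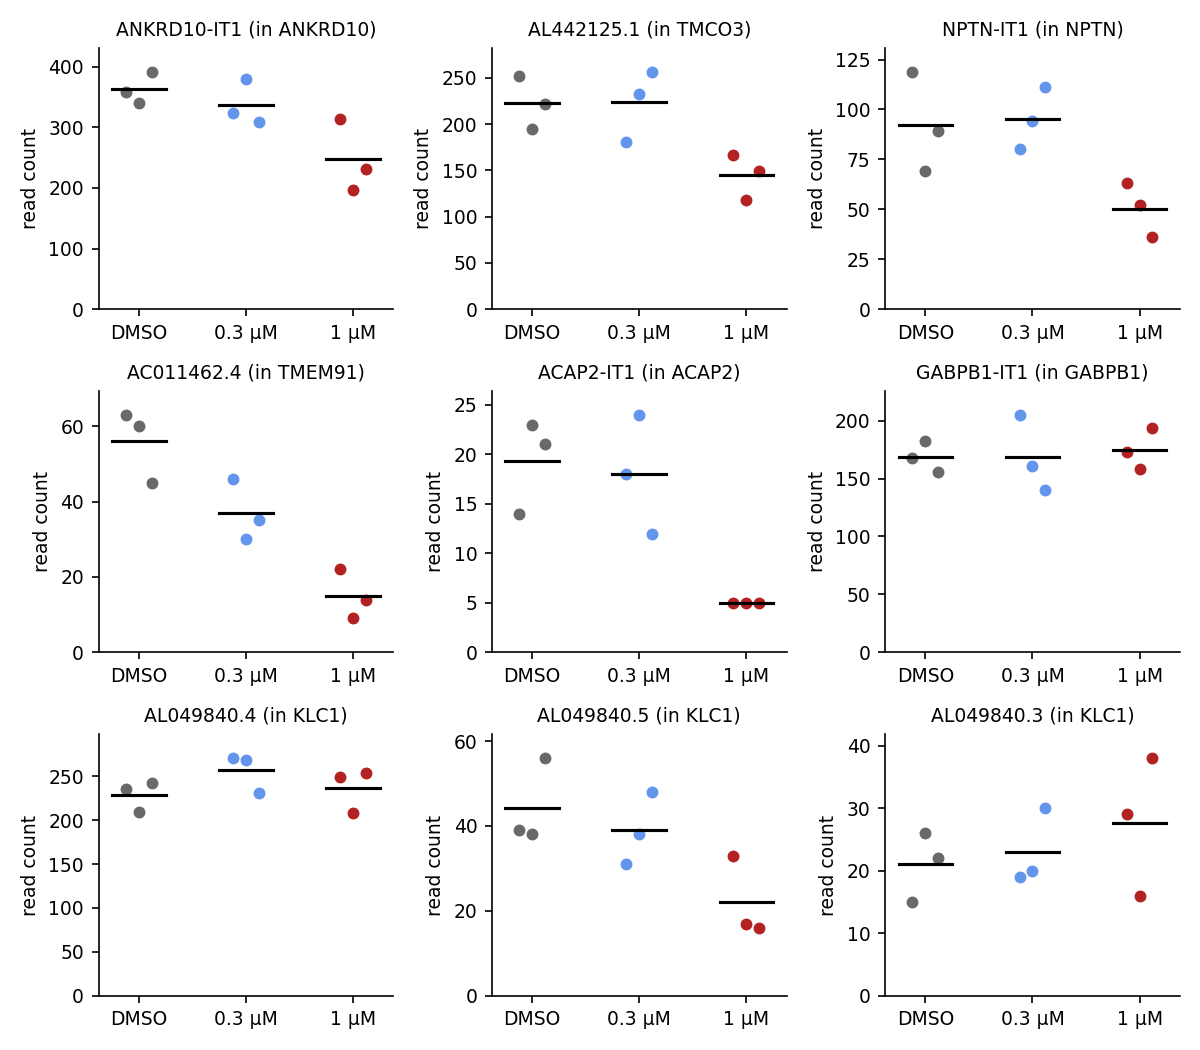
Read counts (vertical axis, from 0) of 9 members in the 3 samples of each group, with the group mean as a bar. ANKRD10-IT1, AL442125.1, NPTN-IT1, AC011462.4, ACAP2-IT1 and AL049840.5 were called lower at 1 μM, whereas GABPB1-IT1, AL049840.4 and AL049840.3 were not called.

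The members with the largest falls had low counts. AP005136.2, in the N6-adenine methyltransferase gene METTL4, had 14, 16 and 16 reads in DMSO, 13, 20 and 11 at 0.3 μM, and 6, 0 and 4 at 1 μM. No sample at 1 μM reached the lowest of the other 6, and the change was −2.18 (SE 0.58, adjusted p = 0.0185), between −2.84 and −1.62 when a library was left out. ACAP2-IT1, in the last intron of ACAP2, which encodes a GTPase-activating protein for Arf6, had 14, 23 and 21 reads in DMSO, 18, 24 and 12 at 0.3 μM, and 5 in each sample at 1 μM. It fell by 1.94 on the log2 scale (SE 0.42, adjusted p = 0.00564) and was called in all 6 fits without a library, while ACAP2 stood at 0.00 (adjusted p = 0.971). AC022613.3, in TJP1, the tight junction protein ZO-1, had 12, 14 and 17 reads in DMSO, 9, 18 and 11 at 0.3 μM, and 3, 3 and 8 at 1 μM, a change of −1.61 (SE 0.49, adjusted p = 0.0345) called in 1 of the 6 fits.

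AC011462.4, in TMEM91, had the lowest adjusted p of the members. It had 63, 60 and 45 reads in DMSO, 46, 30 and 35 at 0.3 μM, and 22, 9 and 14 at 1 μM. The samples at 1 μM lay below all others, with a change of −1.92 (SE 0.31, adjusted p = 0.00091). TMEM91 itself had 142, 156 and 138 reads in DMSO, 120, 102 and 137 at 0.3 μM, and 65, 42 and 68 at 1 μM. The host thus fell as well, by 1.33 on the log2 scale (SE 0.18, adjusted p = 0.000259).

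Other members fell together with their hosts. AP001033.2, in the ankyrin repeat gene ANKRD12, had 33, 32 and 22 reads in DMSO, 34, 33 and 41 at 0.3 μM, and 15, 13 and 4 at 1 μM, and its change was −1.46 (adjusted p = 0.0213). ANKRD12 had 474, 672 and 422 reads in DMSO and 174, 464 and 154 at 1 μM, so that its groups overlapped through replicate 2, and its change was −0.99 (SE 0.30, adjusted p = 0.0331). AC011503.2, in the zinc finger gene ZNF726, had 48, 35 and 38 reads in DMSO and 16, 11 and 28 at 1 μM, with changes of −1.15 (adjusted p = 0.0337) for the member and −1.24 (adjusted p = 0.00613) for ZNF726. AC127502.2 and its non-coding host AC127502.1 fell alike in size, by 0.82 and 0.81 (adjusted p = 0.00719 and 0.00561). AC108449.2 in HMBOX1, a telomere-binding homeobox gene, fell by 0.97 (adjusted p = 0.0142) and HMBOX1 by 0.45 (adjusted p = 0.00837). The last 2 members were outside the naming rule and were chosen after their values were seen.

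Further members fell while most of their hosts were not called. AC008870.2 in UBFD1 had 23, 20 and 20 reads in DMSO, 14, 18 and 30 at 0.3 μM, and 11, 7 and 7 at 1 μM, a change of −1.34 (adjusted p = 0.0207). AL359091.5 in CERCAM had 20, 39 and 15 reads in DMSO and 11, 10 and 10 at 1 μM, a change of −1.26 (adjusted p = 0.0439) that was called in 1 of 6 fits without a library. AC012181.2 in HERPUD1, a gene of endoplasmic reticulum-associated degradation, and AC090589.3 in ARFGAP2, a GTPase-activating protein of COPI transport, had changes of −1.22 and −1.17 (adjusted p = 0.0364 and 0.0429), and neither was called in any fit that left out a library. AC118344.1 lies in the first intron of the kinase gene AKT2 and had 30, 32 and 30 reads in DMSO and 15, 9 and 14 at 1 μM, a change of −1.29 (adjusted p = 0.0127), beside a fall of AKT2 by 0.26 (adjusted p = 0.00751). AC010186.3, which has no host, had 64, 65 and 54 reads in DMSO and 49, 12 and 23 at 1 μM, a change of −1.15 (adjusted p = 0.0313) called in 2 of 6 fits.

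No member rose, and 14 of 104 had a change at or above 0. The highest was AC026271.3 in the zinc finger gene ZNF286B, chosen here after its value was seen, with 9, 14 and 16 reads in DMSO and 26, 14 and 23 at 1 μM, and a change of 0.66 (SE 0.37, adjusted p = 0.237). BACH1-IT1, DLEU2L and AL109614.1 were below the count filter in this comparison and were not tested.

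NPTN-IT1 and its host moved in opposite directions at 1 μM. NPTN-IT1 had 119, 69 and 89 reads in DMSO, 80, 94 and 111 at 0.3 μM, and 63, 52 and 36 at 1 μM. NPTN had 1030, 920 and 970 reads in DMSO, 1073, 1033 and 1093 at 0.3 μM, and 1311, 1267 and 1163 at 1 μM. Neither pair of groups, DMSO and 1 μM, overlapped, and the changes were −0.90 (SE 0.24, adjusted p = 0.0195) for the intronic gene and 0.34 (SE 0.07, adjusted p = 0.00567) for the host. NPTN-IT1 was called in 2 of the 6 fits without a library.

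At the median, hosts moved less than the members. Of the 88 different hosts tested at 1 μM, 16 fell and 7 rose, beside 9.95% of all genes lower and 7.67% higher. The share of hosts lower was thus above that of all genes and near the 19.2% of the members. The median log2 fold change of the hosts was −0.03, while the 98 members in them had a median of −0.56. Of the 19 members that fell and had a tested host, 9 had a host that fell, 1 (NPTN-IT1) had a host that rose and 9 had a host that was not called. The log2 fold changes of members and hosts had a Pearson r of 0.20 and a Spearman rho of 0.06 over 98 pairs, a description, since the pairs share their libraries and some share a host.

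The difference between a member and its host was tested in a single edgeR fit over all 435 nested gene pairs on the same strand in the table, with the sample as a block. At 1 μM, 8 of 98 member pairs differed, all with the member lower (8.16%), and none with the member higher. Over all 435 pairs, 10.1% were called lower and 1.15% higher, so the members' share was near the background. Of the 337 other nested pairs 36 were lower, with a median difference of −0.25, beside −0.44 for the members, and 77 of the 98 members had a change below that of the host. ACAP2-IT1 differed from ACAP2 by −1.93 on the log2 scale (SE 0.38, adjusted p = 0.00441) and was called in all 6 fits that left out a library. For NPTN-IT1 the difference was −1.23 (adjusted p = 0.00441) and for AC008870.2 −1.48 (adjusted p = 0.00836), each called in 4 of the 6. The difference was −1.84 for AP005136.2 (adjusted p = 0.0355), −1.74 for AC022613.3 (adjusted p = 0.0206) and −1.27 for AC105429.1 in ZCCHC14 (adjusted p = 0.0288). AC105429.1 had a change of −1.12 of its own, which did not pass the test (adjusted p = 0.0734).

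The last pairs were AC118344.1 and AC090589.3, with differences of −1.03 and −1.16 (adjusted p = 0.0377 and 0.0382), and neither was called in any fit without a library. The count of 8 rested on the libraries used. It was 1 of 100 without DMSO replicate 1 (15 of all 493 pairs lower) and 4 of 98 without DMSO replicate 2 (26 of 474). It was 3 of 99 without DMSO replicate 3 (19 of 481) and 1 of 99 without replicate 2 at 1 μM (8 of 514). With a minimum count of 1 for a gene to enter, none of 101 member pairs was called by edgeR (lowest adjusted p = 0.0545). In that fit 23 had an unadjusted p under 0.05, and only 2 of all 1137 pairs were called lower. Of 98 member pairs, limma on log2 ratios called NPTN-IT1, AC008870.2 and ACAP2-IT1, beside 23 of all 435 pairs lower.

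**Figure D4:**
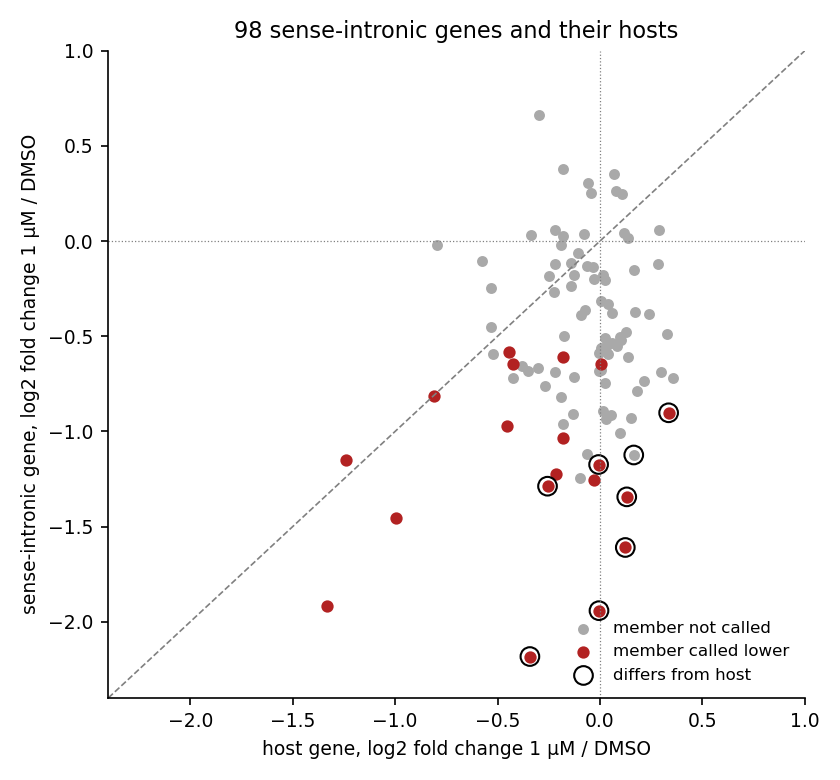
Log2 fold change of each member (vertical axis) against that of its host (horizontal axis), 1 μM against DMSO, for 98 pairs; the dashed line marks equal change and rings mark the 8 pairs that differed. Of the points, 77 lie below the line.

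At 0.3 μM no change of a member was detectable. Of 106 members tested against DMSO, 0 were called by edgeR, as was 0% of all 15762 genes; 2 members had an unadjusted p under 0.05, DESeq2 called 0, and the lowest adjusted p was 0.995. The median log2 fold change was −0.06, with a range of −0.97 to 0.71, and 69 members were below 0. For 6 members all samples lay below DMSO, against 5.27% of all genes. The 2 members past the unadjusted threshold were AC011462.4, at −0.62, and AC012181.2, at −0.97, which had 20, 21 and 17 reads in DMSO and 5, 9 and 16 at 0.3 μM. Of the 20 members that fell at 1 μM, 18 were below 0 at 0.3 μM with a median of −0.12, but both comparisons use the same DMSO samples. Against their hosts, 0 of 100 members differed at 0.3 μM, with 0% of the 485 pairs called, 1 member at an unadjusted p under 0.05, 0 by limma, and a median difference of −0.05.

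Against 0.3 μM in place of DMSO, 12 of 102 members were lower at 1 μM and none higher (11.8% of the members, beside 6.75% of 15583 genes lower and 5.85% higher). The median was −0.44, and for 33 members the groups did not overlap, all lower, against 16.1% of all genes. The samples at 1 μM are shared with the comparison against DMSO, in which 10 of these 12 were called too. The other two were AC092718.4, with 117, 119 and 124 reads at 0.3 μM and 94, 82 and 77 at 1 μM (log2 fold change −0.49, adjusted p = 0.0462), and DLEU2L, outside the naming rule and named after its values were seen, with 19, 14 and 20 reads at 0.3 μM and 5, 4 and 9 at 1 μM (−1.52, adjusted p = 0.0337). AP005136.2 (−2.08, adjusted p = 0.0323), ACAP2-IT1 (−1.80, adjusted p = 0.0151) and AP001033.2 (−1.73, adjusted p = 0.00677) had the largest changes. By DESeq2 the count fell to 6 of 107, beside 831 of 31375 genes lower. It was 6 of 106 without replicate 1 at 0.3 μM (838 of all 15913 genes lower) and 3 of 105 without replicate 2 (683 of 15881). It was 2 of 107 without replicate 2 at 1 μM (585 of 16016) and 4 of 107 without replicate 3 (558 of 16010). In these fits without a library the members' share was near or below that of all genes. It stayed above without replicate 3 at 0.3 μM (11 of 104, beside 1036 of 15939). The same held without replicate 1 at 1 μM (12 of 105, beside 717 of 15953).

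Features of the members were set beside the changes at 1 μM as a description. Of 17 tested members in the first intron of the canonical host transcript, 1 fell, with a median of −0.18, and of 65 in later introns, 15 fell, with a median of −0.58. With a signal at the 3′ end 11 of 61 fell (median −0.50), and without one 9 of 43 fell (median −0.56). Of 90 members without host exon overlap, 17 fell, and of 11 with overlap, 2 fell. Members with an FPKM at or above that of the host had 6 of 20 lower, and those under 10% of the host 1 of 17, with medians of −0.42 and −0.61. All 20 members that fell were among the 94 tested that no expressed opposite-strand gene overlapped. Over the members, the change had a Spearman rho of 0.20 with mean count, −0.13 with position in the host, 0.02 with GC content and −0.09 with length, over 101 to 104 members that share the same libraries.

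Genes of the machinery that makes, protects or degrades intronic RNA were mostly not called at 1 μM, outside the U1 list. The same held for all genes, of which 9.95% were lower and 7.67% higher. Among 9 genes of the U1 snRNP and its partners, 6 fell and 0 rose, with a median log2 fold change of −0.46, and DESeq2 also called 6. The study had itself picked out LUC7L and LUC7L3 on these samples, so their part of the count is not independent evidence. LUC7L and LUC7L3, U1-associated splicing factors, fell by 0.75 and 0.73 on the log2 scale (adjusted p = 0.000254 and 2.97e-05), RBM25 by 0.58, PRPF39 and TIA1 by 0.46 each, and SNRNP70, the U1 70K protein, by 0.26. SNRPA, SNRPC and LUC7L2 stood at −0.07, −0.06 and −0.07. Among 21 genes of nuclear RNA decay (median −0.01), EXOSC4, an exosome subunit, rose by 0.48, while ZFC3H1, which links the exosome to polyadenylated nuclear RNA, fell by 0.27 and PABPN1, the nuclear poly(A)-binding protein, by 0.42. Of 19 cleavage and polyadenylation genes (median −0.05), the poly(A) polymerase gene PAPOLA rose by 0.17 and CPSF6 fell by 0.29. Of 7 SF3B genes (median −0.02), SF3B4 rose by 0.26. None of 8 genes of the elongation kinases CDK7, CDK9, CDK12 and CDK13 and their partners (median 0.06) was called at 1 μM by edgeR or DESeq2, with 1 at an unadjusted p under 0.05, and the lowest adjusted p was 0.0755 in edgeR, for HEXIM1. At 0.3 μM none of the genes in these 5 lists was called by edgeR or DESeq2, although 4 of the U1 list and 2 of nuclear RNA decay had an unadjusted p under 0.05 in each.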

How the data were processed

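The deposited table gives whole-number read counts per gene and sample, which the authors made without normalization, and FPKM values, which the authors scaled by gene length and library size. The submitters' processing notes name HISAT2 2.0.5, featureCounts 1.5.0-p3 and DESeq2 1.20.0, and the methods name HTseq for counting and GRCh38. The authors' own fold changes and p-values in the table were not used. The trend with length was taken from the gene length column of the deposited table. Counts were tested with edgeR 4.0.16 in R 4.3.3 (filterByExpr with a minimum count of 10, TMM, quasi-likelihood test, Benjamini-Hochberg adjustment over all genes), on the 2 groups compared, with DESeq2 1.42.0 and limma 3.58.1 as alternatives. Log2 CPM used a prior count of 2. The host was the enclosing same-strand gene of another biotype, protein-coding first, then the one with the higher mean count. Member and host were compared by the role-by-treatment term with the sample as a block. On simulated counts for 1 μM against DMSO, 192 of 200 genes changed by a log2 of 1 were recovered with 7 false calls over 15606 genes, and 143 of 200 at 0.6 with 7 over 15645. In simulated pairs 20 of 39 changed by 1 were recovered with 1 false call over 445. The genes changed in the simulations all had a mean count of at least 20, and a single fixed dispersion was used for all genes. The rates therefore do not describe the 41 members with a mean count under 20, or genes that vary more between samples. Sequences and introns were read from hg38 and GENCODE v44, which held 100 of the 107 members. Figures were made with Python 3.11.15 and matplotlib 3.10.9.

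The members, lists and tests were chosen with earlier results of these data known. Members named are the 10 most abundant, the 12 called with the largest change at 1 μM, any called at 0.3 μM, the 6 called pairs with the largest difference, 3 genes on each side of the threshold, those sharing a host with them, and up to 6 called genes a list. Of 22 names in the nuclear RNA decay list, 21 matched, since SKIV2L2 is an older symbol of MTREX.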

Additional observations from a re-analysis of the deposited data

How the results depend on the processing

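No named member called at 1 μM changed direction under any alternative run. Among named members not called, single libraries turned the sign of 3 values near 0: MIR600HG (to 0.03), AL049840.4 (to −0.05) and GABPB1-IT1 (to −0.07). The median pair difference at 0.3 μM went from −0.05 to 0.01 without replicate 1 at 0.3 μM. Of 234 alternative values of the 18 named members called at 1 μM, 162 were still called, 70 kept their direction without passing the threshold and 2 had no adjusted p. The count of 20 of 104 members lower at 1 μM against DMSO was 11 of 107 by DESeq2, beside 1145 of 32131 genes lower. With a mean count of at least 20 it was 13 of 66, a share near the 19.2% of all members tested. The count of 20 was 7 to 18 when a library was left out, beside 1004 to 1572 of all genes lower in those fits. The count of 12 of 102 at 1 against 0.3 μM was 6 of 107 by DESeq2, beside 831 of 31375 genes lower. It was 2 to 12 when a library was left out, beside 558 to 1036 of all genes lower. The count of 8 of 98 pairs was 3 of 98 by limma (23 of all 435 pairs lower) and 0 of 101 at a minimum count of 1 (2 of 1137). It was 1 to 9 when a library was left out, beside 8 to 43 of all pairs lower. The counts of 0 at 0.3 μM were 0 in all alternatives run, for members and for pairs. The median change at 1 μM was −0.40 with the trend of gene length removed and −0.56 to −0.45 when a library was left out. With a replicate block the count was 17 of 104 at 1 μM, beside 1267 of all 15617 genes lower. It was 0 of 106 at 0.3 μM, where 1 of 15762 genes was called, and 13 of 102 between doses, beside 1007 of 15583 lower. Same-numbered samples had correlated deviations of only −0.03 to 0.09, which does not settle whether they were handled together. At 0.3 μM against DMSO every sample correlated best with its own number, at 1 μM against DMSO this held for number 3 only, and between doses for none. The causes of these shifts were not tested. With 10 to 20 reads on average in 38 of the tested members, depth limits the size of change that could be seen.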
